A study of Mus musculus with 4 samples.

Results

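The 32 genes described here encode the enzymes that build cholesterol and fatty acids in the cell, with the sensors and transcription factors that control them. The set was selected on measured values in part. It was prompted by Idi1 and Msmo1, whose values in Wnt1-Cre;pMes-Bmp4 exceeded those in wild-type. The other 30 genes were added because they belong to the same pathways, whatever their values. A member also needed a mean normalized read count of at least 10 over the 4 libraries. All 32 genes met this minimum, out of 52459 genes listed and 16746 that met it. The members nearest to it were Acss2 and Fdps, with means of 69.5 and 91.7, and no listed gene lay below it.

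The RNA came from the first pharyngeal arch (PA1), the embryonic outgrowth that gives rise to the jaws, of mouse embryos collected with 25 to 27 somites (E9.5 to E9.75). There were 2 libraries of Wnt1-Cre;pMes-Bmp4 embryos, in which Cre driven from Wnt1 in the neural crest lineage activates a Bmp4 transgene, and 2 libraries of wild-type embryos, which are labelled with neither transgene. Neither Wnt1-Cre nor pMes-Bmp4 was sampled alone, so raised Bmp4 and any action of Cre, of transgene insertion or of background cannot be told apart. The labels do not say whether the libraries of a group came from separate embryos or from pools, so the p-values measure the spread between these libraries, which may be technical. In RNA of the whole arch, a change in the share of a cell type and a change in RNA per cell cannot be told apart. The Wnt1-Cre;pMes-Bmp4 libraries held 29607541 and 31404494 reads in genes, and the wild-type libraries held 33763574 and 47849092.

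The tissue label was checked against markers. All 8 markers of first arch mesenchyme (Prrx1, Prrx2, Twist1, Dlx1, Dlx2, Dlx5, Msx1 and Tfap2a) reached the minimum, with 2 higher and 1 lower in the limma test given below, and none of 5 Hox genes of more posterior arches did. Bmp4 read 1745 and 2656 in Wnt1-Cre;pMes-Bmp4, against 437.1 and 681.7 in wild-type. Markers of other cell types differed between the groups. The summed level of 8 epithelial markers was 31298 to 33461 normalized reads in Wnt1-Cre;pMes-Bmp4 and 18522 to 24476 in wild-type, with 2 of the 7 tested higher. None was at 0 in every library. Krt5, which was not tested, read 0 and 2.42 in Wnt1-Cre;pMes-Bmp4 and 8.16 and 0 in wild-type. The summed level of 6 erythroid markers was 340757 to 380756 in Wnt1-Cre;pMes-Bmp4 and 613080 to 673902 in wild-type, with 2 of 6 lower and none at 0. Of 6 endothelial, 6 neuronal and 3 macrophage markers tested, 0, 1 and 0 were higher and none was lower. Cell types known for heavy lipid synthesis left little trace. Of 6 yolk sac and liver markers Apoa4 was at 0 in every library and the sums were 45.9 to 52.1 in Wnt1-Cre;pMes-Bmp4 and 57.1 to 67.9 in wild-type. Of 5 adipocyte markers Cidec was at 0 throughout and the sums were 8.49 to 12.8 in Wnt1-Cre;pMes-Bmp4 and 5.14 to 10.4 in wild-type. The part of these cell types in the results below was not tested.

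Cholesterol is made from acetyl-CoA through mevalonate, isoprenoids, squalene and lanosterol. Fatty acids are made from the same precursor by a separate set of enzymes. Both sets are controlled by the SREBP transcription factors, which are held in the endoplasmic reticulum by SCAP and the INSIG proteins while sterols are plentiful and are released to the nucleus when sterols run low. SREBP-2, from Srebf2, acts mainly on sterol genes, and SREBP-1c, one product of Srebf1, acts mainly on fatty acid genes. In the embryonic head cholesterol has a further use, since it is attached to hedgehog proteins and binds their signal transducer Smoothened. Mice that lack both Insig genes have facial clefts, and mutations of human DHCR7 cause Smith-Lemli-Opitz syndrome, with facial malformations.

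Idi1 and Msmo1, which prompted the set, are described without a test. Idi1 makes the isoprenoid building block dimethylallyl diphosphate from its isomer. It had 1326 and 1626 normalized reads in the Wnt1-Cre;pMes-Bmp4 libraries, against 619.4 and 519.4 in the wild-type libraries. Both transgenic libraries lay far above both wild-type libraries, and the difference was 2.59-fold (log2 fold change 1.37 ± 0.18, SE). Msmo1 removes methyl groups from the sterol ring after lanosterol. It had 3207 and 3464 normalized reads in Wnt1-Cre;pMes-Bmp4, against 1508 and 1459 in wild-type, a 2.25-fold difference (log2 fold change 1.17 ± 0.13, SE). The groups were again well apart, and the libraries of each group lay close together. Over the alternative analyses the log2 fold change ranged from 1.06 to 1.52 for Idi1 and from 0.87 to 1.22 for Msmo1. Idi1 lies on chromosome 13 at 8885501 to 8892451, and Msmo1 on chromosome 8 at 64718139 to 64733792 of GRCm38. Exons of Idi1 share 323 bases with Gm48574 on the other strand. Whether counting was stranded is not stated, so reads from these bases cannot be assigned to either gene.

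Promoter sequences are shown for these genes and for the 4 further members with the smallest p-values that RefSeq promoters were given for, so that the genes that prompted the set stand beside others that passed the test below. Each runs 5′ to 3′ across a RefSeq start on GRCm38.p6, with most of its bases upstream. Capitals mark CCAAT or its reverse complement ATTGG, the box bound by NF-Y, a factor that acts beside SREBP in sterol promoters. Of the windows shown, only that of Acaca lies wholly inside its annotated gene, which spans 84129672 to 84401651. It therefore describes an internal start of Acaca, also where motifs are counted below.
Idi1, chr13:8885356-8885655, plus strand: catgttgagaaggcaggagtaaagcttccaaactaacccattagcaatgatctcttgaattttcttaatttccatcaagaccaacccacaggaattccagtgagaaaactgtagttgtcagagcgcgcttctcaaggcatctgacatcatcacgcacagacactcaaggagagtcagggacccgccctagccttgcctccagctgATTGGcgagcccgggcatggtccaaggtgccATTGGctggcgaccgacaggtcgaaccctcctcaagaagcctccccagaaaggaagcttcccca
Msmo1, chr8:64733529-64733828, minus strand: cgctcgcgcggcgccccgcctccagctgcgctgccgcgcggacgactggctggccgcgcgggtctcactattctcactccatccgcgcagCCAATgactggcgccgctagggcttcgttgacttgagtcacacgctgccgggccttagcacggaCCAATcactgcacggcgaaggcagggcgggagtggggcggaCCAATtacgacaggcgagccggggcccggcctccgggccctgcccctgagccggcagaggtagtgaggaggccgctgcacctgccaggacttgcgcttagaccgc
Acat2, chr17:12960676-12960975, minus strand: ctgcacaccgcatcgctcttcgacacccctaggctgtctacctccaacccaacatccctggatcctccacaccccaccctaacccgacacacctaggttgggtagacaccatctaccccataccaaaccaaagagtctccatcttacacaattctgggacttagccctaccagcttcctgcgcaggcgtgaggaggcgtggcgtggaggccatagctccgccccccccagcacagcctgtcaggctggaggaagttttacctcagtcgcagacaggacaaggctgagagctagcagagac
Acaca, chr11:84195188-84195487, plus strand: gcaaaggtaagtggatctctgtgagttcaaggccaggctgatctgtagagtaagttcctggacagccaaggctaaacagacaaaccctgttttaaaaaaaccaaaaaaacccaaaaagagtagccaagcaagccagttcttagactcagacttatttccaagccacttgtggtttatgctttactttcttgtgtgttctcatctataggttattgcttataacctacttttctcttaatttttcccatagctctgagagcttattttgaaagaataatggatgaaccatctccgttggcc
Insig1, chr5:28071162-28071461, plus strand: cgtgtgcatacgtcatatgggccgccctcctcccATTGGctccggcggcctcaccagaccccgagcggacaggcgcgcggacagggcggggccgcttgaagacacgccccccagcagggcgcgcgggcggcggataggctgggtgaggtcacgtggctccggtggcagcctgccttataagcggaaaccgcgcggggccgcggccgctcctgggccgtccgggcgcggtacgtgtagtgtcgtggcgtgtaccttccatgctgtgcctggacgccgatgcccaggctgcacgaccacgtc
Cyp51, chr5:4104648-4104947, minus strand: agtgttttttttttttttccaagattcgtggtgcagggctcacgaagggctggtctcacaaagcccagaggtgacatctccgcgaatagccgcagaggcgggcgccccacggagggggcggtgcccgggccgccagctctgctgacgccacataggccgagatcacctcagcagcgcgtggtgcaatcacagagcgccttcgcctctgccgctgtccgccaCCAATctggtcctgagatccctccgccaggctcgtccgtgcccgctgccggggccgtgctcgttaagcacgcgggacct

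The CCAAT box occurred 2 times in the window of Idi1, at 45 and 14 bases before the start, and 3 times in that of Msmo1. Insig1 and Cyp51 held it 1 time each, and Acat2 and Acaca did not hold it. Windows were given for 26 of the 32 members. Of these, 22 (84.6%) held CCAAT on either strand, beside 41.1% of the 27025 genes in the RefSeq table and 43.0% of the genes tested here that it lists. All 9 squalene to cholesterol genes with a window held it, as did 6 of 7 mevalonate genes, 4 of 5 regulators and 3 of 5 fatty acid genes. The members without it were Acaca, Acat2, Elovl6 and Scap. TCACNCCAC, a core of the sterol regulatory element, was found in Hmgcs1 alone, in 1 of 26 members (3.85%) beside 1.44% of genes in the table and 1.34% of those tested here. TCACGTGA, an E-box that SREBP can bind, was in 0 of 26, beside 1.12% and 2.13%. The motifs do not overlap each other, and a match describes the letters only.

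**Figure D1:**
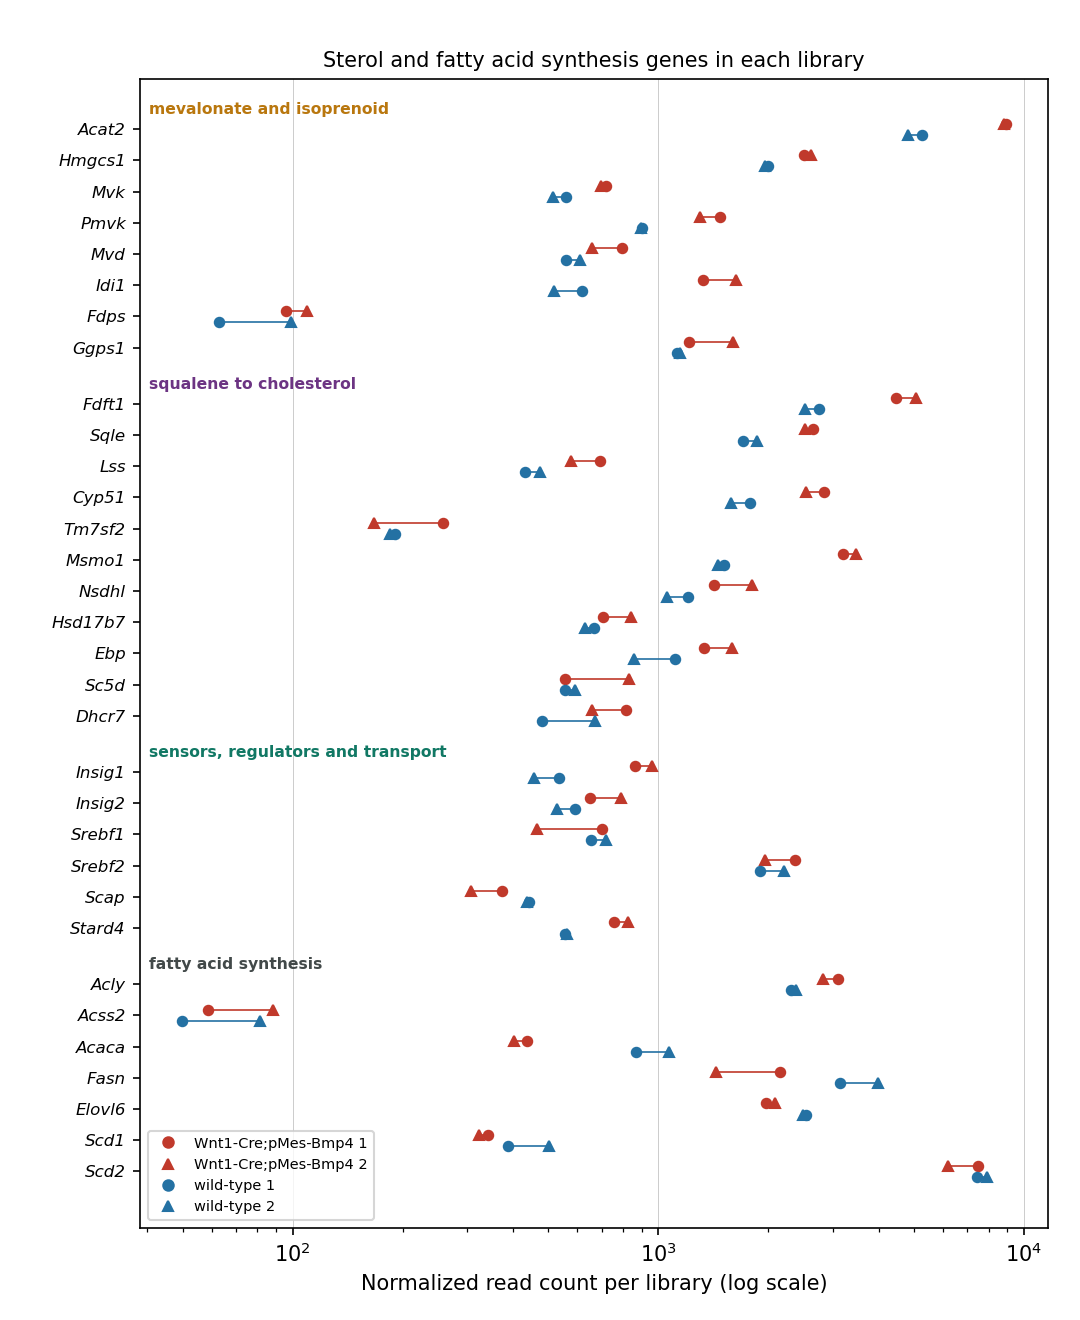
Normalized read count (x axis, log scale) of each of the 32 genes (y axis, by role) in every library. Red marks Wnt1-Cre;pMes-Bmp4 and blue wild-type, with circles for library 1 and triangles for library 2 joined by a line. For 13 of the 17 sterol enzymes other than Idi1 and Msmo1 both red marks lie right of both blue marks, while for Acaca, Fasn, Elovl6 and Scd1 they lie left.

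The sterol enzymes of the set all had a higher mean on the log2 scale in Wnt1-Cre;pMes-Bmp4, while its fatty acid enzymes were divided. Without Idi1 and Msmo1, whose values chose the set, all 17 sterol enzymes had a positive log2 fold change, with a median of 0.40, beside 51.3% of all genes tested and a median of 0.02. The summed level of these 17 was 31478 and 32402 normalized reads in Wnt1-Cre;pMes-Bmp4, against 21330 and 20447 in wild-type. Of the 7 fatty acid enzymes 2 had a positive and 5 a negative log2 fold change, with a median of -0.31. Of the 30 members other than Idi1 and Msmo1, both transgenic libraries lay above both wild-type libraries in 17, and both lay below in 5. The same was true of 30% and 29.7% of all genes tested.

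Changes were tested with limma over all 16746 genes. The p-values were adjusted by the Benjamini-Hochberg method, and 0.05 was the threshold. Of the 30 members other than Idi1 and Msmo1, 5 rose (Acat2, Fdft1, Insig1, Cyp51 and Pmvk), 2 fell (Acaca and Fasn) and 23 did not pass. Among all genes tested 2.97% were called higher and 5.28% lower. Since the set was prompted by this same contrast, nothing is read from the counts. Every one of the 7 calls was lost when either wild-type library was left out. Without wild-type replicate 1 limma called 0 of the 30 members, and 9 had an unadjusted p under 0.05. Without wild-type replicate 2 it called 0, and 8 had an unadjusted p under 0.05. Of all genes tested, 0 and 1 were then called, with 3185 and 1806 at an unadjusted p under 0.05. Without Wnt1-Cre;pMes-Bmp4 replicate 1 the log2 fold changes of the 5 that rose were 0.81 (Acat2), 0.94 (Fdft1), 0.96 (Insig1), 0.60 (Cyp51) and 0.53 (Pmvk). Without Wnt1-Cre;pMes-Bmp4 replicate 2 they were 0.83, 0.76, 0.80, 0.76 and 0.72 in the same order. The other tools were not run on 3 libraries. On all 4, edgeR called 5 members higher and 2 lower, beside 409 and 915 of all genes tested. DESeq2 called 7 and 2, beside 1234 and 1573.

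In the mevalonate and isoprenoid group, 2 of the 7 genes other than Idi1 rose, 0 fell and 5 did not pass, and the median log2 fold change of these 7 was 0.38. Acat2, the cytosolic thiolase that joins acetyl-CoA units at the head of the pathway, rose 1.77-fold. It had 8946 and 8828 normalized reads in Wnt1-Cre;pMes-Bmp4, against 5259 and 4805 in wild-type (log2 fold change 0.82 ± 0.12, SE, limma adjusted p 0.0219). The close paralog Acat3 was at 40.5 and 166.1 in Wnt1-Cre;pMes-Bmp4 and 49.0 and 46.3 in wild-type, and how reads shared by the pair were counted is not given in the sources used here. Pmvk, which adds the second phosphate to mevalonate, rose 1.54-fold, with 1478 and 1302 in Wnt1-Cre;pMes-Bmp4 against 902.0 and 896.9 in wild-type (log2 fold change 0.62 ± 0.15, SE, limma adjusted p 0.0467). That p lay close to the threshold, and with TMM scaling it was 0.0501. After a correction for transcript length, described below, Acat2 had a log2 fold change of 0.62 (limma adjusted p 0.0548) and Pmvk one of 0.43 (limma adjusted p 0.186).

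The other mevalonate genes had smaller differences in the same direction. Hmgcs1, which makes HMG-CoA, had 2505 and 2615 normalized reads in Wnt1-Cre;pMes-Bmp4, against 1992 and 1953 in wild-type, and its log2 fold change of 0.38 did not pass (limma adjusted p 0.104). Hmgcs1 shares 557 exon bases (12.1%) with Gm48342 on the other strand. The groups did not overlap for Hmgcs1, nor for the kinase Mvk, the decarboxylase Mvd or Ggps1, which makes geranylgeranyl diphosphate. These 3 had log2 fold changes of 0.40, 0.31 and 0.29. Fdps, which makes farnesyl diphosphate, was the only gene of the group in which they overlapped. It had 96.0 and 109.1 normalized reads in Wnt1-Cre;pMes-Bmp4 and 63.0 and 98.7 in wild-type, far below the enzymes before and after it. It shares 1124 exon bases with Gm43738 on the same strand, and how reads of these bases were counted is not stated, so its level is uncertain.

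In the squalene to cholesterol group, 2 of the 10 genes other than Msmo1 rose, 0 fell and 8 did not pass, and the median log2 fold change of these 10 was 0.50. Fdft1, squalene synthase, commits farnesyl units to sterols and rose 1.8-fold. It had 4460.2 and 5055 normalized reads in Wnt1-Cre;pMes-Bmp4, against 2744 and 2522 in wild-type (log2 fold change 0.85 ± 0.13, SE, limma adjusted p 0.0233). It kept its call after the length correction, with a log2 fold change of 0.82 and a limma adjusted p of 0.0492. Fdft1 shares 774 exon bases, 18.3% of its own, with Ctsb on the other strand. Ctsb also rose (log2 fold change 0.68, limma adjusted p 0.0343), and reads of the shared bases cannot be assigned. Cyp51, the lanosterol demethylase, rose 1.6-fold, with 2839 and 2540 in Wnt1-Cre;pMes-Bmp4 against 1783 and 1579 in wild-type (log2 fold change 0.68 ± 0.14, SE, limma adjusted p 0.0361). Its length-corrected log2 fold change was 0.69, with a limma adjusted p of 0.0548.

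Sqle and Lss, which turn squalene into lanosterol, lay just outside the threshold or further from it. Sqle, squalene epoxidase, had 2646 and 2522 normalized reads in Wnt1-Cre;pMes-Bmp4, against 1702 and 1861 in wild-type (log2 fold change 0.54 ± 0.13, SE, limma adjusted p 0.0509). Lss, the cyclase, had 691.1 and 575.9 in Wnt1-Cre;pMes-Bmp4, against 431.0 and 474.2 in wild-type (log2 fold change 0.48 ± 0.18, SE, limma adjusted p 0.132). Lss has the longest annotated transcript of the sterol enzymes, 6992 bases. With length corrected its value was 0.91 (limma adjusted p 0.0492), which passed. In both genes the groups were separate.

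The members after Cyp51 other than Msmo1 did not pass. Nsdhl and Ebp, the X-linked sterol dehydrogenase and isomerase, differed by 0.51 and 0.58 on the log2 scale. Neither passed (limma adjusted p 0.102 and 0.0898), although the groups did not overlap. Hsd17b7, a sterol ketone reductase, had 706.0 and 842.7 normalized reads in Wnt1-Cre;pMes-Bmp4, against 666.8 and 629.5 in wild-type, with a log2 fold change of 0.25. For the last 3 genes the groups overlapped. Dhcr7, the reductase of the final step, had 813.7 and 659.6 in Wnt1-Cre;pMes-Bmp4 and 481.4 and 670.6 in wild-type (log2 fold change 0.37 ± 0.21, SE, limma adjusted p 0.303). Sc5d, the desaturase before it, had 556.7 and 829.3 in Wnt1-Cre;pMes-Bmp4, against 554.1 and 590.4 in wild-type. Tm7sf2, a sterol reductase, had 257.0 and 167.3 in Wnt1-Cre;pMes-Bmp4, against 189.9 and 184.1 in wild-type. It shares 532 exon bases (12.1%) with Vps51 on the same strand, so its level is uncertain. The log2 fold change of Tm7sf2 was 0.15, and it turned to -0.16 without Wnt1-Cre;pMes-Bmp4 replicate 1, as that of Sc5d turned to -0.04 without replicate 2.

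**Figure D2:**
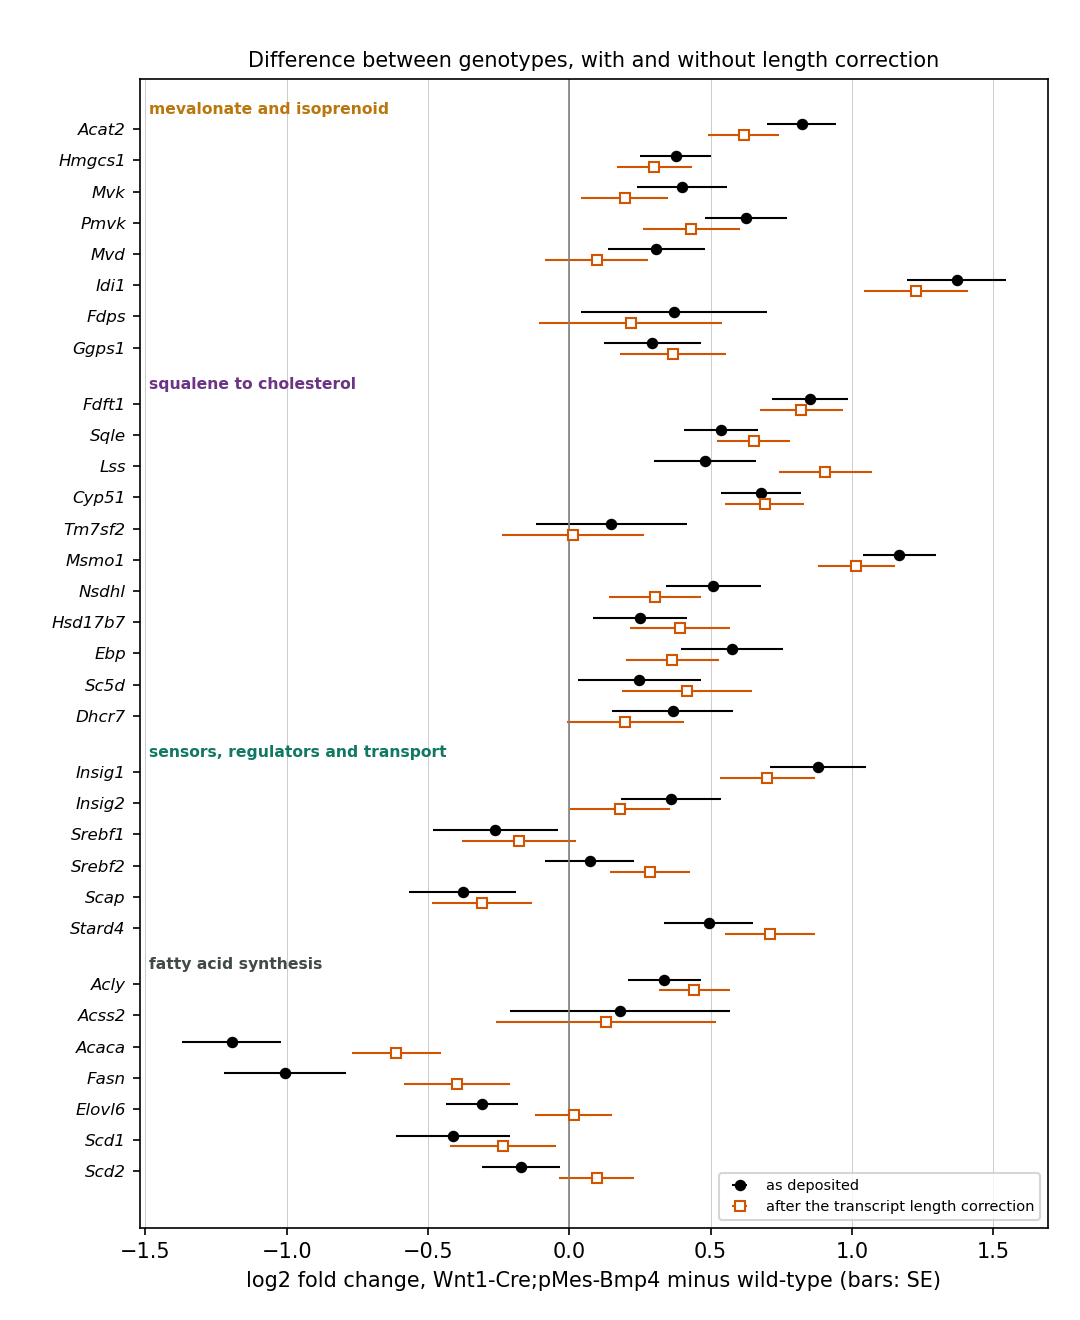
Log2 fold change of each gene (x axis, Wnt1-Cre;pMes-Bmp4 minus wild-type, bars SE), by role on the y axis. Black circles are the values as deposited and orange squares those after the transcript length correction. All 17 sterol enzymes other than Idi1 and Msmo1 lie right of 0 in both. Acaca moves from -1.20 to -0.61 and Fasn from -1.01 to -0.40 with the correction.

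Among the 6 sensors and regulators 1 rose, 0 fell and 5 did not pass, with a median log2 fold change of 0.22. Insig1, the membrane anchor of the SCAP-SREBP complex and itself an SREBP target, had 863.9 and 961.5 normalized reads in Wnt1-Cre;pMes-Bmp4, against 535.5 and 456.7 in wild-type. It rose 1.84-fold (log2 fold change 0.88 ± 0.17, SE, limma adjusted p 0.0319). Corrected for length, the difference was 0.70 on the log2 scale (limma adjusted p 0.0727). Its paralog Insig2 had 651.6 and 789.3 in Wnt1-Cre;pMes-Bmp4, against 593.4 and 526.6 in wild-type, with a log2 fold change of 0.36 ± 0.18 (SE, limma adjusted p 0.229). The groups were apart for both paralogs, and the difference between their changes was not tested.

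The transcription factors and their escort did not pass in the uncorrected values. Srebf2 had 2371 and 1957 normalized reads in Wnt1-Cre;pMes-Bmp4 and 1899.6 and 2211 in wild-type (log2 fold change 0.07 ± 0.16, SE, limma adjusted p 0.794). Srebf1 had 701.8 and 466.8 in Wnt1-Cre;pMes-Bmp4, against 654.2 and 721.0 in wild-type (log2 fold change -0.26 ± 0.22, SE, limma adjusted p 0.470). In both the groups overlapped, and the sign of both changed under other settings. Srebf2 read -0.016 with quantile scaling. After a correction for length and GC content Srebf2 read 0.50 and was called higher (limma adjusted p 0.0396), and Srebf1 read 0.054. Srebf1 counts do not separate the SREBP-1a and SREBP-1c transcripts. Scap had 373.3 and 308.0 in Wnt1-Cre;pMes-Bmp4, against 443.6 and 438.2 in wild-type, with both transgenic libraries below both wild-type ones (log2 fold change -0.38 ± 0.19, SE, limma adjusted p 0.236). Scap shares 985 exon bases (13.2%) with 5830462I19Rik on the other strand. Stard4, which carries cholesterol between membranes, had 754.0 and 825.7 in Wnt1-Cre;pMes-Bmp4, against 557.1 and 563.6 in wild-type (log2 fold change 0.49 ± 0.16, SE, limma adjusted p 0.0925).

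In the fatty acid group 0 of 7 genes rose, 2 fell and 5 did not pass. Acaca, the acetyl-CoA carboxylase that makes malonyl-CoA, had 438.3 and 402.5 normalized reads in Wnt1-Cre;pMes-Bmp4, against 867.1 and 1069.7 in wild-type. It was 2.29-fold lower (log2 fold change -1.20 ± 0.18, SE, limma adjusted p 0.0219), the largest fall of the set. Fasn, the synthase that builds palmitate, had 2152 and 1438 in Wnt1-Cre;pMes-Bmp4, against 3139.8 and 3974 in wild-type and was 2.01-fold lower (log2 fold change -1.01 ± 0.22, SE, limma adjusted p 0.0388). In both genes all transgenic values lay below all wild-type values. The wild-type libraries differed from each other by 0.30 on the log2 scale for Acaca and 0.34 for Fasn. For Fasn the gap between the transgenic libraries was larger, at -0.58 for replicate 2 minus replicate 1. The log2 fold change of Fasn was -1.30 without Wnt1-Cre;pMes-Bmp4 replicate 1 and -0.71 without replicate 2.

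The upstream and downstream enzymes of the group did not pass. Acly, which supplies cytosolic acetyl-CoA to both branches, had 3108 and 2824 normalized reads in Wnt1-Cre;pMes-Bmp4, against 2312 and 2383 in wild-type (log2 fold change 0.34 ± 0.13, SE, limma adjusted p 0.141). Acss2, which makes acetyl-CoA from acetate, was low and overlapped, with 58.7 and 88.5 in Wnt1-Cre;pMes-Bmp4, against 49.7 and 81.3 in wild-type. The elongase Elovl6 had 1975 and 2082 in Wnt1-Cre;pMes-Bmp4, against 2539 and 2488 in wild-type (log2 fold change -0.31 ± 0.13, SE, limma adjusted p 0.161). The desaturases Scd1 and Scd2 are paralogs on chromosome 19 that make monounsaturated fatty acids. Scd1 had 341.3 and 322.5 in Wnt1-Cre;pMes-Bmp4, against 387.9 and 501.9 in wild-type, with no overlap (log2 fold change -0.41, limma adjusted p 0.228). Scd2 had 7490 and 6207 in Wnt1-Cre;pMes-Bmp4, against 7442 and 7904 in wild-type, with overlap (log2 fold change -0.17, limma adjusted p 0.453).

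Transcript length moved with these differences. Genes averaging at least 50 normalized reads were split into 6 bins by length. In the bin of Idi1, Msmo1 and Insig1, 2449 to 3275 bases, the median log2 fold change was 0.19. It was -0.12 for 4214 to 5652 bases and -0.50 for 5653 bases and more. Acaca and Fasn, at 9513 and 10050 bases, are in that last bin with Elovl6 and Lss. The median length of the members was 5455 bases in the fatty acid group and 3083 in the 17 sterol enzymes. A spline on length was therefore subtracted from each library. Of the 30 members limma then called 2 higher (Fdft1 and Lss) and 0 lower, beside 0.642% and 0.985% of the 16351 genes tested. At an unadjusted p under 0.05, 9 members were higher and 1 lower. The share of all genes at that cutoff is not given for this correction, so nothing is read from that count. The other tools were not run with this correction. The median of the 17 sterol enzymes was 0.37 and all were positive, while that of the fatty acid group was 0.02 with 4 of 7 positive.

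After that correction Acaca had a log2 fold change of -0.61 (limma adjusted p 0.0823) and Fasn of -0.40 (limma adjusted p 0.25). Elovl6 and Scd2 turned positive, at 0.02 and 0.10. With length and GC content corrected together, 10 members were called higher (Acat2, Pmvk, Fdft1, Sqle, Lss, Cyp51, Insig1, Srebf2, Stard4 and Acly) and Acaca was called lower, beside 3.98% and 4.56% of all genes. Fasn then had a log2 fold change of -0.15 (limma adjusted p 0.359). All 17 sterol enzymes were positive under both corrections. Calls in both branches changed with the treatment of transcript length. Acat2, Pmvk, Cyp51, Insig1, Acaca and Fasn lost theirs under the length correction and Lss gained one. For Cyp51 the lost call came with no smaller difference, as its log2 fold change was 0.68 before and 0.69 after. Its limma adjusted p went from 0.0361 to 0.0548, while the share of all genes called higher went from 2.97% to 0.642%. The signs of Acaca and Fasn stayed negative under both corrections.

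**Figure D3:**
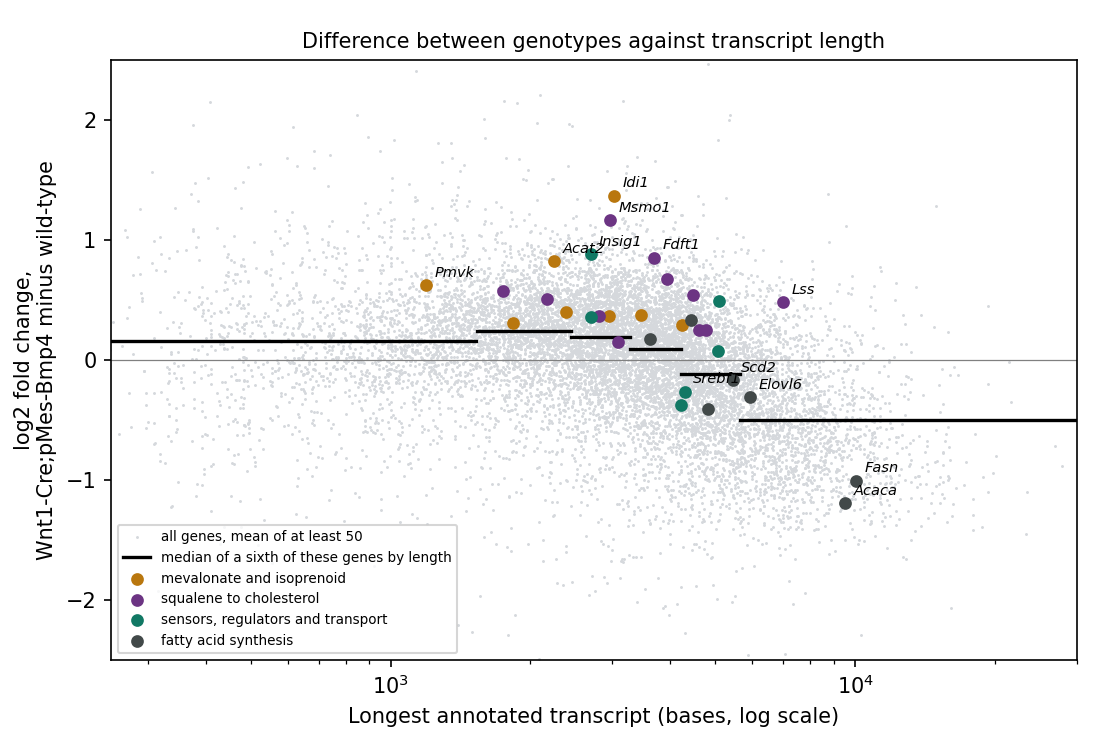
Log2 fold change (y axis, Wnt1-Cre;pMes-Bmp4 minus wild-type) against the longest annotated transcript in bases (x axis, log scale). Grey points are all genes with a mean of at least 50, black lines the median of each of 6 length bins, and coloured points the 32 members by role; genes beyond the axes are not drawn. Acaca and Fasn lie at the long end, where the median was -0.50, and Lss lies above that median at 0.48.

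Levels were compared between genes as normalized reads per kilobase of the longest annotated transcript. Acat2 had the highest level, 3950.0 ± 37.1 per kilobase in Wnt1-Cre;pMes-Bmp4 and 2237 ± 143 in wild-type (SD, n = 2 each). Scd2 came next in wild-type at 1407 ± 59.9, while in Wnt1-Cre;pMes-Bmp4 Fdft1 at 1286 ± 114, Scd2 at 1255 ± 166, Pmvk at 1164 ± 104 and Msmo1 at 1123 ± 61.2 did not differ beyond their spread. Scd1, the paralog of Scd2, was far lower, at 68.7 ± 2.75 in Wnt1-Cre;pMes-Bmp4 and 92.1 ± 16.7 in wild-type. Srebf2 exceeded Srebf1, at 426.2 ± 57.7 against 135.9 ± 38.6 per kilobase in Wnt1-Cre;pMes-Bmp4 and 404.9 ± 43.4 against 159.9 ± 11 in wild-type. Insig1 and Insig2 were at 338.4 ± 25.6 and 267.1 ± 36.1 in Wnt1-Cre;pMes-Bmp4, and at 183.9 ± 20.7 and 207.6 ± 17.5 in wild-type, where they did not differ beyond their spread. Acss2 and Fdps were lowest in both groups. Idi1 was at 487.5 ± 70.1 in Wnt1-Cre;pMes-Bmp4 and 188.1 ± 23.4 in wild-type.

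**Figure D4:**
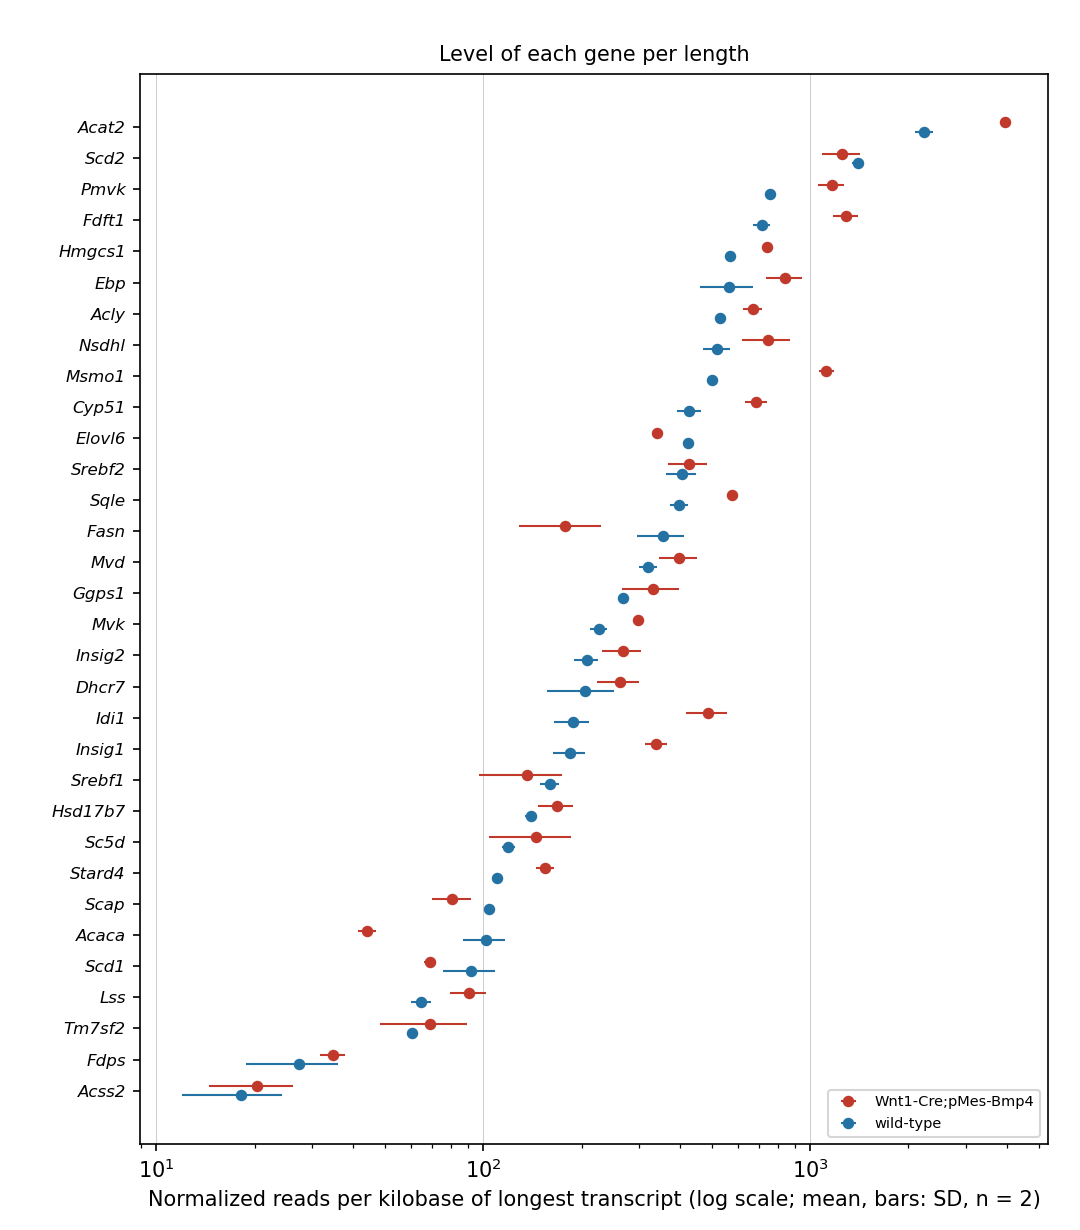
Normalized reads per kilobase of longest transcript (x axis, log scale) of each gene (y axis, ordered by the wild-type level). Points are means and bars SD of 2 libraries, red for Wnt1-Cre;pMes-Bmp4 and blue for wild-type. Acat2 is highest at 3950.0 and 2237, and Acss2 and Fdps are lowest.

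The libraries of a group also differed from each other. The median absolute difference between both libraries was 0.25 on the log2 scale in Wnt1-Cre;pMes-Bmp4 and 0.13 in wild-type, beside 0.29 and 0.21 over all genes tested. It exceeded 0.5 in 5 members in Wnt1-Cre;pMes-Bmp4 and in 2 in wild-type. The 2 in wild-type were Fdps and Acss2, the lowest members. The 5 in Wnt1-Cre;pMes-Bmp4 were Acss2, Tm7sf2, Sc5d, Srebf1 and Fasn, and the groups overlapped in the first 4 of them.

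Further genes of the pathway, 68 in 5 lists, were read in the same fit. Of 63 tested, 3 rose, 0 fell and 60 did not pass, while 2.97% of all genes tested were called higher and 5.28% lower. Nothing is read from these counts or from those of the single lists below. The median log2 fold change of the 63 was 0.20. At an unadjusted p under 0.05, 18 were higher (28.6%, beside 13.4% of all genes tested) and 3 lower (4.76%, beside 15.3%). In either direction, 33.3% of the 63 had an unadjusted p under 0.05, beside 28.8% of all genes tested. By edgeR 3 were called higher and 0 lower, beside 409 and 915 of all genes. By DESeq2 13 and 1 were called, beside 1234 and 1573. Of 13 genes of sterol synthesis and SREBP control 0 passed in limma, with 5 higher and 1 lower at an unadjusted p under 0.05, 0 called by edgeR and 5 by DESeq2. Erg28, a scaffold of the demethylation enzymes, had 3126 and 3380.3 normalized reads in Wnt1-Cre;pMes-Bmp4, against 2443 and 2126 in wild-type (log2 fold change 0.51, limma adjusted p 0.0612). Mbtps2, the protease that makes the second cut in SREBP, had 483.1 and 378.3 in Wnt1-Cre;pMes-Bmp4, against 704.7 and 747.7 in wild-type (log2 fold change -0.76, limma adjusted p 0.05, just over the threshold). Of 12 uptake and transport genes only Npc2, a lysosomal cholesterol carrier, rose (log2 fold change 0.54 ± 0.12, SE, limma adjusted p 0.0407).

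Of 6 export and LXR genes 0 passed in limma, 2 had an unadjusted p under 0.05, and edgeR and DESeq2 called 0. Lpcat3 and Abcg1, both targets of the sterol-sensing LXR receptors, had log2 fold changes of 0.51 and -0.86 (limma adjusted p 0.0899 and 0.169). In the isoprenoid branch 1 of 8 genes rose, Fnta, the shared subunit of the enzymes that attach farnesyl and geranylgeranyl groups to proteins. It had 4978 and 6618 normalized reads in Wnt1-Cre;pMes-Bmp4, against 3580 and 3264 in wild-type (log2 fold change 0.75 ± 0.16, SE, limma adjusted p 0.0402). Of 24 other fatty acid genes 1 rose, the elongase Elovl1, which makes very long chains (log2 fold change 0.63 ± 0.14, SE, limma adjusted p 0.0452). Of these 24, 18 had a positive and 6 a negative log2 fold change, with a median of 0.22, unlike the 7 fatty acid members. At an unadjusted p under 0.05 in limma, 6 were higher and 0 lower, beside 13.4% and 15.3% of all genes tested. Without wild-type replicate 1, limma called 0 of the 63, with 9 higher and 1 lower at an unadjusted p under 0.05, and without replicate 2 it called 0, with 6 and 1. After the length correction limma called 0, with 14 higher and 1 lower at an unadjusted p under 0.05. Nothing is read from that count either, as no share of all genes stands beside it. Npc2, Fnta and Elovl1 then had log2 fold changes of 0.44, 0.54 and 0.42.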

How the data were processed

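RNA from the first pharyngeal arch was sequenced by poly(A)-selected RNA-seq in 2 Wnt1-Cre;pMes-Bmp4 and 2 wild-type libraries. Reads were trimmed with fastp 0.21.0 and the build was mm10, per the submitters' processing notes, and counted with featureCounts, per the file headers. No source used here names the aligner, the annotation or the strand setting. The deposited values are a signal per gene that the authors had scaled by library. They are read counts divided by a size factor, since multiplying by the recovered factors gave whole reads in 100% of values within 0.01, and the factors equal median-of-ratios size factors.

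The members and lists were chosen with earlier results of these data known. Genes with a mean of at least 10 were tested on log2(value + 1) with limma 3.58.1 (R 4.3.3, trend, two-sided, all 4 libraries, 2 residual degrees of freedom), adjusted over 16746 genes by the Benjamini-Hochberg method, and calls were made under 0.05. Fold changes are on that scale and are understated for low genes. Idi1 and Msmo1 were given no test. The genes named with a value in every library are Idi1, Msmo1, those past the threshold, the Insig, Srebf and Scap genes, the largest change per role group and direction, and further members of interest. In the other lists they are those past the threshold, or the 2 of smallest p.

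Alternatives were other pseudocounts, filters and scalings, a replicate block, leaving out each library, natural splines (4 degrees of freedom) on transcript length alone or with GC content, edgeR 4.0.16 and DESeq2 1.42.0 on the recovered reads. Lengths are of the longest transcript of GENCODE M21 on GRCm38, known for 97.6% of genes tested and all 32 members. The scripts were tested on simulated data. Promoters are RefSeq's on GRCm38.p6, and Fdft1, Fdps, Scd1, Scd2, Sqle and Stard4 were not analysed for motifs.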

Additional observations from a re-analysis of the deposited data

How the results depend on the processing

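The genes tested that limma called (498 higher, 884 lower) numbered 165 and 543 with the replicate block, 105 and 161 after the length correction, and 1234 and 1573 with DESeq2. The members called (5 higher, 2 lower) included 2 higher with the replicate block, 2 higher and 0 lower after the length correction, and 10 higher and 1 lower after the length and GC correction. The other pathway genes called (3 higher, 0 lower) were 0 higher with the block, 0 after the length correction, 7 higher after the length and GC correction, 13 higher and 1 lower with DESeq2, and 6 higher and 1 lower at a mean of at least 50. With a pseudocount of 5, no filter or TMM scaling 1 was lower. With libraries left out in turn, the genes called ranged over 0 to 2675 higher and 0 to 2719 lower, the members over 0 to 12 and 0 to 3, and the other pathway genes over 0 to 13 and 0 to 4. The lone library of a group was then assumed to vary like the other group. The cause was not tested.

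The labels do not say whether a replicate number marks a shared litter or day. The deviations of same-numbered libraries correlated at -0.27 over 12411 genes. With the pairs crossed, a choice made after seeing the data, limma called 1763 and 1952 genes, 10 members higher, and 15 and 1 other pathway genes.

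The median log2 fold change of the fatty acid group was 0.016 after the length correction. That of the 8 mevalonate genes ranged over 0.42 to 0.50 with libraries left out, beside 0.39 with all 4 libraries. These medians include Idi1, which prompted the set, so they are no check of the median without it. The sign turned after the length correction for Elovl6 (0.016) and Scd2 (0.10), after the length and GC correction for Srebf1 (0.054) and Scd2 (0.13), and with quantile scaling for Srebf2 (-0.016). With libraries left out the log2 fold change ranged over -0.16 to 0.46 for Tm7sf2, -0.039 to 0.54 for Sc5d, -0.56 to 0.031 for Srebf1, -0.067 to 0.21 for Srebf2 and -0.17 to 0.53 for Acss2. The 17 sterol enzymes other than Idi1 and Msmo1 were positive under every alternative named above or in the methods, with 2 exceptions. Tm7sf2 was negative without Wnt1-Cre;pMes-Bmp4 replicate 1, and Sc5d was negative without replicate 2. With 2 libraries a group, small differences could not be resolved.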

Other observations

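Idi2, the paralog of Idi1, lay under the minimum for testing and is named after its values were seen. It had 0 and 0 reads in the Wnt1-Cre;pMes-Bmp4 libraries, against 16 and 10 reads in the wild-type libraries. Idi1 had the opposite order, and Idi2 was given no test.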
